A study of Homo sapiens with 12 samples.

Results

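The 14-3-3 protein family comprises 7 human genes, YWHAB, YWHAE, YWHAG, YWHAH, YWHAQ, YWHAZ and SFN, and the mRNA of each was followed here after depletion of the RNA-binding protein IGF2BP1. Members were taken by gene symbol, and all 7 were among the 58174 genes listed in each of the tables analysed here, of which 19799 were protein-coding. The study asked which transcripts depend on IGF2BP1 in cancer cells, and YWHAZ was one of the mRNAs it followed up. Poly-A RNA was sequenced 72 h after transfection of Hep-G2, a line from a liver cancer, or BE(2)-C, a line from a neuroblastoma. The siC groups received a control siRNA based on a nematode miRNA, and the siI1 groups received a pool of siRNAs against IGF2BP1. Hep-G2 cells were given siRNA at 15 nM and BE(2)-C cells at 25 nM. Each of the 4 groups had 3 libraries. A pool lowers the transcript without removing it. Each cell type is represented by 1 established line. The study describes the libraries of a group as biological replicates, and p-values measure the spread between them.

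14-3-3 proteins form dimers that bind other proteins, called clients, at short motifs carrying a phosphorylated serine or threonine. Binding can hold a client in the cytoplasm, block or expose a surface, or bridge a pair of partners, and clients include cell cycle phosphatases, pro-apoptotic factors, RAF kinases and transcription factors. IGF2BP1 is an oncofetal RNA-binding protein known to protect bound mRNAs from decay, often through their 3'UTRs and against miRNAs.

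Since IGF2BP1 acts mostly through 3'UTRs, the members' 3'UTRs were compared first. In the reference transcript of each gene (MANE Select, GENCODE v44, hg38), YWHAZ had the longest 3'UTR, with 4170 nt. YWHAG had 2778 nt, YWHAB 2094 nt, YWHAQ 1319 nt, YWHAE 1172 nt, YWHAH 811 nt and SFN 497 nt, beside a median of 1088 nt over 18780 genes. The tetramers CAUA, CAUC and CAUU, which contain the core letters IGF2BP proteins are known to prefer, occurred 12.2 times per kb in YWHAZ and 12.9 times per kb, as a median, in the 831 3'UTRs within 10% of its length. They were densest in YWHAQ (19.7 per kb) and YWHAE (16.2 per kb), and SFN had 0. These tetramers were counted on the transcribed strand and may overlap other motifs.

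Sites for the seeds of 3 miRNAs were then searched on the same strand, since let-7, miR-340 and miR-30 are among the families named by the study for mRNAs bound by IGF2BP1. The mature miRNAs are shown to make the match readable, with the seed (bases 2 to 8) in capitals, from RefSeq (GRCh38.p14), where all 3 were matched by name.
let-7a-5p: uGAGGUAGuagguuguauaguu
miR-340-5p: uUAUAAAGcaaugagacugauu
miR-30a-5p: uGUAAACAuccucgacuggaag

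The letters searched were CTACCTC for let-7a-5p, CTTTATA for miR-340-5p and TGTTTAC for miR-30a-5p. Among the members other than YWHAZ, 3 matches were found, and each is shown as mRNA sense with the match in capitals, all in the last exon's 3'UTR. The YWHAE matches lie at chr17:1344719-1344743 (let-7a-5p, 713 nt after the stop codon) and chr17:1344508-1344532 (miR-340-5p, 924 nt after it), on the minus strand of hg38. The YWHAH match lies at chr22:31957276-31957300 (miR-340-5p, 493 nt after the stop codon), on the plus strand.
YWHAE, let-7a-5p: cccctccccCTACCTCcttcccctc
YWHAE, miR-340-5p: gcctccatcCTTTATActtctaaaa
YWHAH, miR-340-5p: ttccatcagCTTTATAataaactgt

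Of 3'UTRs within 10% of the length of that of YWHAE, 6.82% held the let-7a-5p letters and 11.3% the miR-340-5p letters. For the length of YWHAH, 8.33% held the miR-340-5p letters. YWHAZ had 1 match to miR-30a-5p, whose letters occurred in 37.2% of 3'UTRs of its length, and none to the other seeds. YWHAB, YWHAG, YWHAQ and SFN had no match to these letters. A match is a description of letters, and binding was not measured here.

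Levels are given as FPKM, fragments scaled by gene length in kb and by library size. The deposited gene length was 8555 nt for YWHAZ, 7933 nt for YWHAB and 1320 nt for SFN. The reference coding sequence and 3'UTR had 738 and 4170 nt in YWHAZ, 741 and 2094 nt in YWHAB, and 747 and 497 nt in SFN. The deposited length is thus far above the reference for some members, and FPKM compared between members depends on it. A member's own ratio of siI1 to siC does not. Between 12852988 and 15721210 reads per library fell on genes, and groups had similar depth, with median reads between 13838226 and 14592537. Each cell line's table was scaled on its own, so levels were not tested across lines.

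The libraries carried the markers of their labelled cells. All 8 hepatocyte markers had a mean of at least 1 FPKM in Hep-G2, led by ALB at 4619 FPKM, whereas 7 of 8 were below 0.1 FPKM in BE(2)-C and AFP and HNF4A were listed at 0. Among the noradrenergic neuroblastoma markers, MYCN had a mean of 1778 FPKM in BE(2)-C, CHGA 912 FPKM, DBH 245 FPKM, HAND2 228 FPKM and ISL1 29.1 FPKM. In Hep-G2, MYCN was at 0.0273 FPKM and DBH at 0.113 FPKM, with HAND2, ISL1 and CHGA at 0. The summed hepatocyte markers moved with the knockdown in Hep-G2, from 7501 to 7574 FPKM in siC libraries to 12022 to 13706 FPKM in siI1 libraries. Abundant genes dominate this sum, and the 8 markers did not move together. At a limma adjusted p under 0.05, 4 were called higher (ALB, APOA1, SERPINA1 and HNF4A) and 2 lower (AFP and TTR), or 4 and 3 without siI1 replicate 1. The part of this in the member results was not tested.

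One library stood apart. Between Hep-G2 siI1 replicate 1 and replicates 2 and 3, gene-wise read differences exceeded sampling noise by a chi-square per degree of freedom of 12.6 and 12.9, against 1.93 between replicates 2 and 3. Other pairs of the same group reached at most 6.73. The calls of members, their comparisons and the counts of the gene lists below are given with and without it, and no libraries were identical.

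The targeted mRNA was lower in every siI1 library. In Hep-G2, IGF2BP1 (ENSG00000159217) measured 48.5, 46.6 and 50.8 FPKM in siC and 12.6, 10.7 and 10.7 FPKM in siI1. The BE(2)-C libraries had 21.3, 20.6 and 21.6 FPKM in siC and 4.85, 4.75 and 4.87 FPKM in siI1. The log2 fold changes, on the log2(FPKM + 0.1) scale that understates changes of low genes, were -2.10 (SE 0.08, limma adjusted p = 7.83e-06) and -2.11 (SE 0.05, adjusted p = 1.48e-05). Their difference between the lines was 0.02 (95% interval -0.19 to 0.22, adjusted p = 0.914), with 23.3% of the siC mean left in Hep-G2, beside 22.8% for BE(2)-C.

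In Hep-G2, 5 of 7 members were called lower after IGF2BP1 knockdown at a limma adjusted p under 0.05 (YWHAZ, SFN, YWHAG, YWHAB and YWHAH), where 23.0% of all 19436 tested genes were called lower. An unadjusted p under 0.05 gave the same 5, with 26.6% of tested genes. With libraries scaled to equal sums of FPKM, which moves the median log2 fold change of all tested genes in Hep-G2 from 0.01 to -0.15, YWHAQ was also called lower (-0.26, adjusted p = 0.00590; range over its alternatives 0.00590 to 0.455), where 30.0% of tested genes were called lower and 16.5% higher. None was called higher by limma (0 of 7, also 0 at an unadjusted p under 0.05), where 21.9% of tested genes were called higher (25.7% unadjusted). Without siI1 replicate 1, the same 5 were called lower, with 26.7% of tested genes, and YWHAE was called higher, with 23.8% of tested genes.

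Of the 7 members, 6 were above the detection floor in BE(2)-C, all but SFN. Among these, 1 was called lower, YWHAZ, where 14.8% of all 18656 tested genes were called lower. At an unadjusted p under 0.05 there were 2, YWHAZ and YWHAB, with 20.4% of tested genes. None was called higher by limma (0, also 0 at an unadjusted p under 0.05), where 13.3% of tested genes were (19.4% unadjusted). The median log2 fold change was -0.57 over the members in Hep-G2, beside 0.01 over all tested genes, and -0.06 in BE(2)-C, beside 0.02, the latter including SFN at the detection floor.

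**Figure D1:**
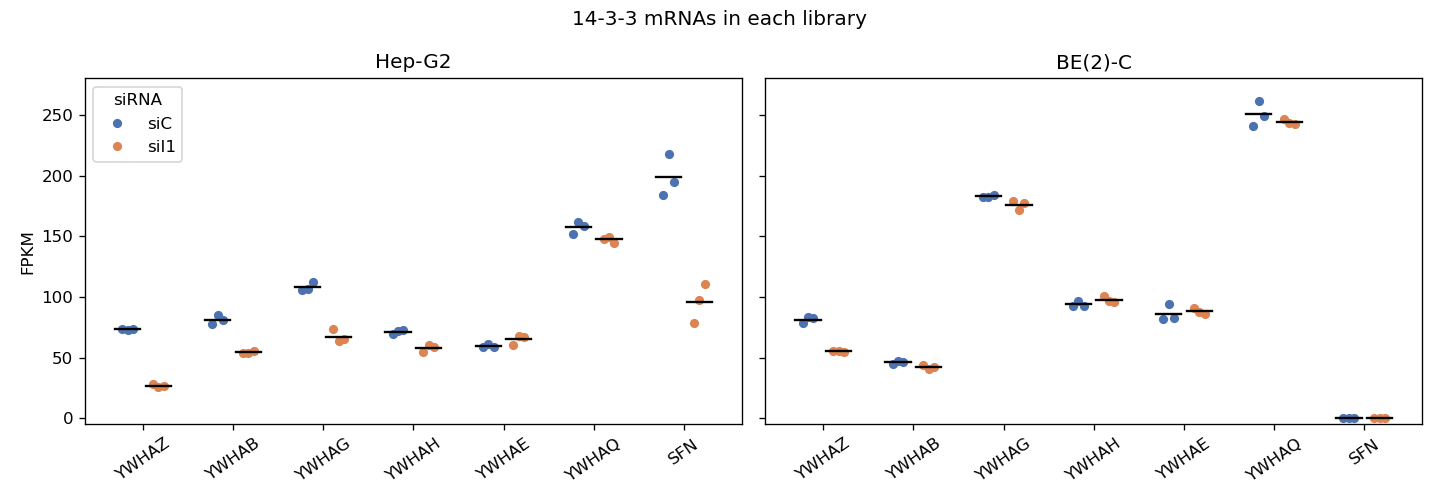
FPKM (y axis, linear) of the 7 members (x axis) in each siC (blue) and siI1 (orange) library of Hep-G2 (left) and BE(2)-C (right), with black bars at the mean of 3 libraries. YWHAZ lies between 26.0 and 28.1 FPKM in Hep-G2 siI1 libraries, below 72.7 to 73.6 FPKM in siC libraries, and SFN is near 0 in BE(2)-C.

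YWHAZ (ENSG00000164924, chr8:100916523-100953388, minus strand, hg38) encodes the zeta protein, a broadly expressed member that also dimerizes with most paralogs. In Hep-G2 it measured 73.6, 72.7 and 73.5 FPKM in siC and 28.1, 26.0 and 26.4 FPKM in siI1. The groups did not overlap, and each was tight, with SDs of 0.497 and 1.13 FPKM (n = 3). For this and the other members, overlap only describes the values, as the share of all tested genes without overlap is not given. The log2 fold change was -1.45 (SE 0.05, limma adjusted p = 5.32e-06), with 36.7% of the siC mean left, and it was -1.48 without siI1 replicate 1 (adjusted p = 6.03e-06).

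The BE(2)-C values of YWHAZ were 78.2, 83.5 and 82.4 FPKM in siC and 55.4, 55.5 and 54.2 FPKM in siI1. Again no siI1 library reached the lowest siC library. The log2 fold change was -0.56 (SE 0.04, limma adjusted p = 2.89e-04), with 67.6% of the siC mean left. Of tested protein-coding genes, 3.24% in Hep-G2 and 8.56% in BE(2)-C had a lower log2 fold change. The study picked YWHAZ partly for its decrease in these same libraries, so the size of this fall is a description and not independent evidence.

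SFN (ENSG00000175793, chr1:26863149-26864456, plus strand) encodes the sigma protein, or stratifin, an epithelial member that is a known target of p53, acts at the G2 checkpoint and mostly forms homodimers. Its Hep-G2 values were 184, 218 and 195 FPKM in siC and 78.4, 97.8 and 111 FPKM in siI1. All siI1 libraries were below all siC libraries, and SFN varied most among replicates of all members in this line, with SDs of 17.5 and 16.2 FPKM (n = 3). Its log2 fold change was -1.07 (SE 0.13, limma adjusted p = 7.89e-04), or -0.93 without siI1 replicate 1 (adjusted p = 3.87e-04), the library with the lowest SFN value.

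SFN was at the detection floor in BE(2)-C, with 0 to 3 reads per library and 11 reads in all, and values from 0 to 0.177 FPKM. It passed the filter on low values, but no fold change is given. Of 6 markers of stratified epithelium, a tissue known for high SFN, all were below 0.1 FPKM in both lines. KRT16 was the most abundant, at 0.0146 FPKM in Hep-G2, where KRT5 and DSG3 were at 0, and at 0.0376 FPKM in BE(2)-C, where TP63 and DSG3 were at 0. The summed level of these markers in Hep-G2 libraries was 0 to 0.0869 FPKM in siC and 0 to 0.0604 FPKM in siI1, and in BE(2)-C 0 to 0.0847 and 0 to 0.182 FPKM.

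YWHAG (ENSG00000170027, chr7:76326799-76358991, minus strand) encodes the gamma protein, which is abundant in brain and muscle and is mutated in a form of developmental epilepsy. Hep-G2 libraries had 106, 106 and 112 FPKM in siC and 73.2, 63.6 and 65.1 FPKM in siI1. The groups did not overlap, and siI1 replicate 1 was the highest of its group. The log2 fold change was -0.69 (SE 0.07, limma adjusted p = 2.78e-04), or -0.75 without that library (adjusted p = 5.43e-05). BE(2)-C libraries had 183, 183 and 184 FPKM in siC and 179, 172 and 177 FPKM in siI1. All siI1 values were below all siC values, but the log2 fold change of -0.06 (95% interval -0.15 to 0.04) did not pass the test (adjusted p = 0.340).

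YWHAB (ENSG00000166913, chr20:44885702-44908532, plus strand) encodes the beta protein, known as a partner of RAF kinases. In Hep-G2 it measured 77.5, 84.8 and 80.8 FPKM in siC and 53.8, 53.6 and 55.8 FPKM in siI1. The groups did not overlap, and the log2 fold change was -0.57 (SE 0.05, limma adjusted p = 2.06e-04), with or without siI1 replicate 1 (-0.57, adjusted p = 2.76e-04). The levels in BE(2)-C were 45.0, 47.6 and 46.4 FPKM in siC and 43.8, 40.7 and 42.1 FPKM in siI1. These groups did not overlap either, yet the log2 fold change of -0.13 (95% interval -0.24 to -0.03) missed the threshold (limma adjusted p = 0.0661).

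YWHAH (ENSG00000128245, chr22:31944522-31957603, plus strand) encodes the eta protein, known for its high level in brain. Its level in Hep-G2 was 69.1, 72.0 and 72.8 FPKM in siC and 54.4, 60.5 and 58.5 FPKM in siI1. The groups did not overlap, and the log2 fold change was -0.30 (SE 0.06, limma adjusted p = 0.00493), or -0.26 without siI1 replicate 1 (adjusted p = 0.00287). With equal sums of FPKM it was -0.47. Values in BE(2)-C were 92.2, 96.6 and 92.7 FPKM in siC and 100, 96.6 and 95.4 FPKM in siI1. The groups overlapped, with a log2 fold change of 0.05 (95% interval -0.04 to 0.15, adjusted p = 0.381). Reads of its antisense neighbour C22orf24, which overlaps the gene's start, were 0 to 3 per library in Hep-G2 and 1 to 17 in BE(2)-C, beside at least 1805 reads of YWHAH, and the strand setting of the authors' counting is not given in the sources used here.

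YWHAE (ENSG00000108953, chr17:1344275-1400222, minus strand) encodes the epsilon protein, which binds the dynein regulator NDEL1 and is fused to other genes in endometrial stromal sarcoma. It carries the let-7a-5p and miR-340-5p letters shown above. In Hep-G2 it measured 58.9, 61.0 and 58.6 FPKM in siC and 60.3, 67.9 and 66.8 FPKM in siI1. The groups overlapped through siI1 replicate 1, and the log2 fold change was 0.13 (SE 0.06, limma adjusted p = 0.135). Without that library it was 0.18 and passed the threshold (adjusted p = 0.00874), while with equal sums of FPKM it was -0.04 (adjusted p = 0.432), and the adjusted p over all alternatives ranged from 0.00874 to 0.432. The BE(2)-C libraries held 82.1, 93.9 and 82.7 FPKM in siC and 90.8, 87.4 and 86.3 FPKM in siI1, with overlapping groups and a log2 fold change of 0.03 (95% interval -0.11 to 0.18, adjusted p = 0.719).

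YWHAQ (ENSG00000134308, chr2:9583967-9630997, minus strand) encodes the theta protein, also called tau and first described in T cells. In Hep-G2 it measured 152, 162 and 159 FPKM in siC and 148, 150 and 145 FPKM in siI1. The groups did not overlap, but the log2 fold change of -0.09 (95% interval -0.22 to 0.03) did not pass the test with the deposited scaling (limma adjusted p = 0.194). Levels in BE(2)-C were 241, 261 and 249 FPKM in siC and 246, 243 and 243 FPKM in siI1. Here the groups overlapped, with a log2 fold change of -0.04 (95% interval -0.15 to 0.07, adjusted p = 0.605).

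**Figure D2:**
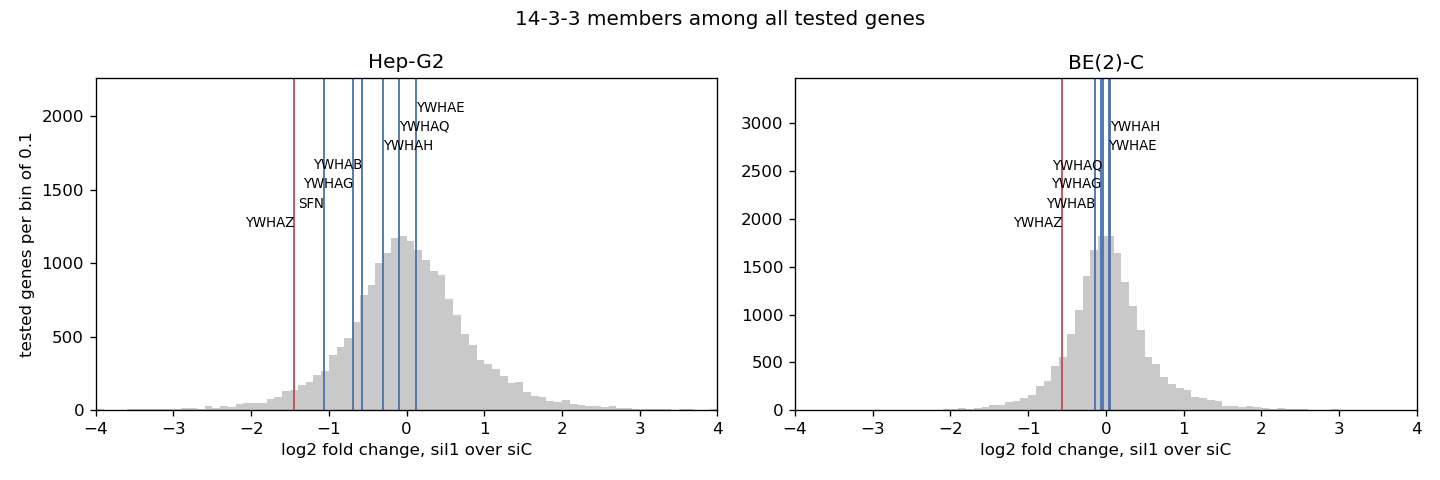
Number of tested genes (y axis) by log2 fold change of siI1 over siC (x axis, bins of 0.1, end bins holding genes beyond the axis) in Hep-G2 (left) and BE(2)-C (right). Vertical lines mark the members, with YWHAZ in red at -1.45 and -0.56, and SFN is left out in BE(2)-C.

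The order of the members by FPKM changed with the knockdown in Hep-G2. In both lines this order depends on the gene lengths used. In Hep-G2 siC replicate 1, YWHAZ had 9771 reads, YWHAB 9549 and SFN 3764, although SFN had the highest FPKM. In siC libraries the mean FPKM fell from SFN (199) over YWHAQ (157), YWHAG (108), YWHAB (81.0), YWHAZ (73.2) and YWHAH (71.3) to YWHAE (59.5). YWHAZ and YWHAH overlapped between libraries, whereas the other neighbours in this order did not. In siI1 libraries YWHAQ (147) was highest, followed by SFN (95.6), and YWHAZ (26.8) was lowest. Between them, YWHAG (67.3) overlapped YWHAE (65.0), YWHAE overlapped YWHAH (57.8) and YWHAH overlapped YWHAB (54.4), which did not overlap YWHAZ.

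The order in BE(2)-C was the same in both groups. In siC libraries it ran from YWHAQ (250 FPKM) over YWHAG (183), YWHAH (93.8), YWHAE (86.2), YWHAZ (81.4) and YWHAB (46.3) to SFN (0.131), with overlap between YWHAH and YWHAE and between YWHAE and YWHAZ. In siI1 libraries no neighbours overlapped, and YWHAZ (55.0 FPKM) lay below YWHAE (88.2 FPKM).

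As a share of the summed 14-3-3 FPKM, YWHAZ made up 10.2, 9.36 and 9.78% in Hep-G2 siC libraries and 5.67, 5.00 and 5.01% in siI1 libraries. Its share in BE(2)-C was 10.8, 10.9 and 11.2% in siC and 7.74, 7.98 and 7.77% in siI1. The groups did not overlap in either line, and the exact two-sided permutation test gave p = 0.1 in each, the smallest value that 3 against 3 libraries allow. The share is a ratio within a library and does not depend on how libraries are scaled. Like the summed FPKM, it does depend on the gene length used for each member.

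The summed FPKM of the family was 749 ± 28.1 in siC and 514 ± 16.4 in siI1 in Hep-G2 (SD, n = 3, exact permutation p = 0.1), 0.686 of the siC mean. The BE(2)-C sum was 741 ± 22.6 in siC and 703 ± 11.4 in siI1 (SD, n = 3, exact permutation p = 0.1), 0.948 of the siC mean. In Hep-G2 the share of SFN went from 26.5% to 18.5%, while that of YWHAQ went from 21.0% to 28.7% and that of YWHAE from 7.94% to 12.6% (exact permutation p = 0.1 each). The share of YWHAQ rose with the fall of the sum, as its own mean went from 157 to 147 FPKM, and that of YWHAE from 59.5 to 65.0 FPKM. The paralogs' shares in BE(2)-C moved by at most 1.20 percentage points, for YWHAH.

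**Figure D3:**
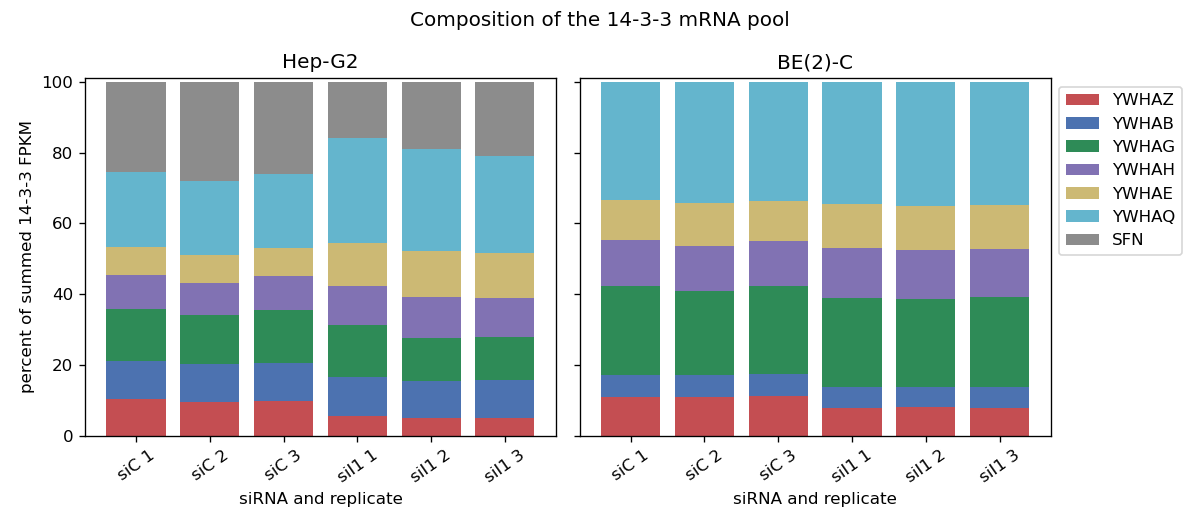
Percent of the summed 14-3-3 FPKM (y axis) held by each member (colours) in each library (x axis, siRNA and replicate) of Hep-G2 (left) and BE(2)-C (right). The YWHAZ segment at the base is 9.78% on average in Hep-G2 siC and 5.23% in siI1 libraries, and it is 7.83% in BE(2)-C siI1 libraries, below all 3 siC libraries.

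The change of each paralog was then tested against that of YWHAZ in the same libraries, which removes any factor common to a library. As the study picked YWHAZ partly for its fall in these libraries, the p-values against it are not independent evidence. In Hep-G2, 5 of 6 paralogs were less lowered than YWHAZ, where 84.6% of all tested genes were. YWHAE differed most, by 1.57 (95% interval 1.37 to 1.78, limma adjusted p = 3.41e-06), followed by YWHAQ (1.35), YWHAH (95% interval 0.95 to 1.34), YWHAB (0.87) and YWHAG (0.76), with adjusted p-values up to 1.75e-05 for these. SFN differed by 0.38 (95% interval 0.00 to 0.76), which missed the threshold (adjusted p = 0.0575). Without siI1 replicate 1, it differed by 0.55 (adjusted p = 0.00150, range over its alternatives 0.00150 to 0.167), so 6 of 6 paralogs were then called, with 84.2% of tested genes.

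All 5 paralogs above the detection floor in BE(2)-C were less lowered than YWHAZ, where 60.0% of all tested genes were. The differences lay within a narrow range, from 0.43 for YWHAB (95% interval 0.32 to 0.54, limma adjusted p = 2.53e-04) to 0.62 for YWHAH (95% interval 0.51 to 0.72, adjusted p = 6.95e-05). YWHAG, YWHAQ and YWHAE lay between them at 0.51, 0.53 and 0.60. As YWHAZ is among the more lowered genes in both lines, these shares of all genes are high, and the paralogs' counts are to be read beside them.

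**Figure D4:**
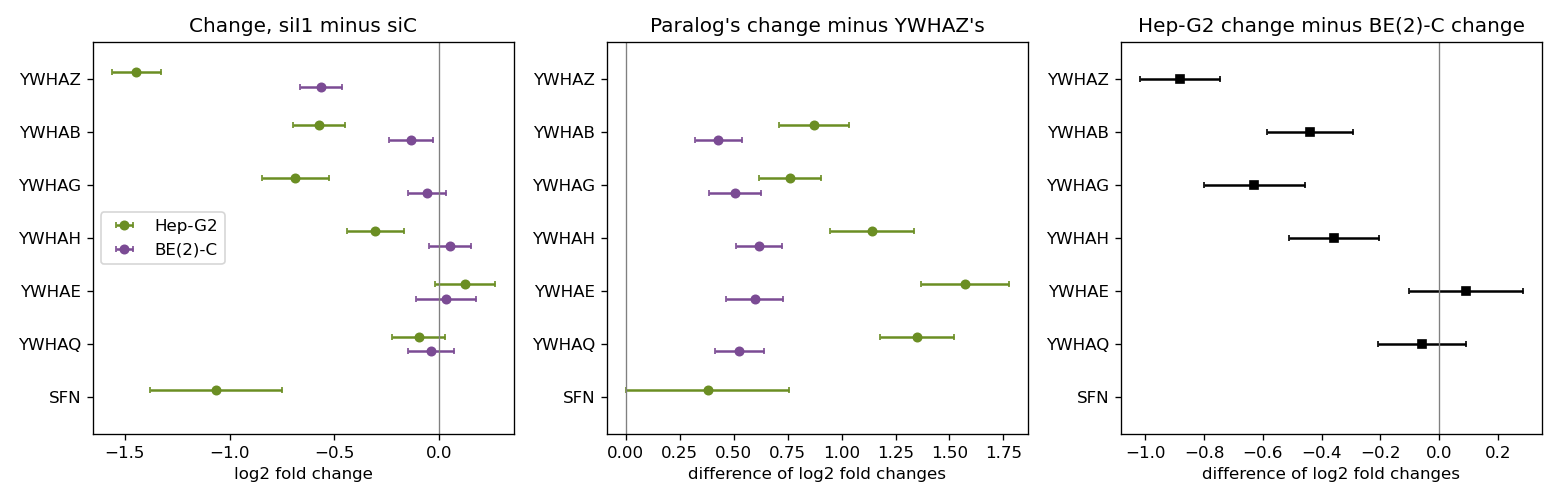
Log2 fold change of each member (left), its difference from that of YWHAZ (middle) and the Hep-G2 change minus the BE(2)-C change (right), with 95% intervals from limma (n = 3 libraries per group) and grey lines at 0. Hep-G2 is green and BE(2)-C purple, SFN is shown for Hep-G2 alone, and the difference of YWHAE from YWHAZ is 1.57 for the Hep-G2 libraries and 0.60 for BE(2)-C.

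The siRNA pool lowered several members further in Hep-G2, where 15 nM was used, than in BE(2)-C with 25 nM. Of the 6 members above the floor in both lines, 4 differed in their change at a limma adjusted p under 0.05, where 40.2% of the 15362 genes tested in both did. YWHAZ differed by -0.88 (SE 0.06, adjusted p = 1.75e-06), YWHAG by -0.63 (SE 0.08, adjusted p = 9.55e-05), YWHAB by -0.44 (SE 0.07, adjusted p = 3.79e-04) and YWHAH by -0.36 (SE 0.07, adjusted p = 0.00184). YWHAE differed by 0.09 (95% interval -0.10 to 0.28) and YWHAQ by -0.06 (95% interval -0.21 to 0.09), with adjusted p-values of 0.447 and 0.535. With equal sums of FPKM, YWHAQ also differed (-0.25, adjusted p = 0.0150, range over its alternatives 0.0150 to 0.761), YWHAH differed by -0.54 and YWHAE was -0.10, with 42.8% of genes called. Without Hep-G2 siI1 replicate 1, the same 4 were called, with 46.6% of genes.

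Members resemble each other in sequence, so the reads that could be shared were examined. Coding sequences were 74.2% identical between YWHAZ and YWHAB and 73.7% between YWHAZ and YWHAQ, and the closest pair was YWHAG and YWHAH at 78.5%. The longest exact stretch common to the reference mRNAs of YWHAZ and another member was 23 nt, and that of YWHAG and YWHAH was 39 nt. Each table also listed 20 pseudogenes of the family. Those of YWHAZ numbered 8, and YWHAZP3 shared a stretch of 221 nt with its parent. The YWHAZ pseudogenes held 81 reads in Hep-G2 and 100 reads in BE(2)-C over 6 libraries each, 0.219% and 0.204% of the reads on YWHAZ. For YWHAE the shares were 0.382% and 0.472%, and for YWHAB and YWHAQ at most 0.0282%. Where a pseudogene shares a stretch longer than a read, the counting could assign reads to either, so these values are uncertain.

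The genes most like YWHAZ were found by Pearson's r over the 12 libraries after centring each cell line, among 2795 protein-coding genes with a mean of at least 10 FPKM in both lines. They were EIF2AK1, a kinase that senses heme (r = 0.997), ARF3, a small GTPase of the Golgi (0.996), MAFG, a small MAF transcription factor (0.996), NPTN, a cell adhesion protein (0.995) and ARPP19, an inhibitor of the phosphatase PP2A in mitosis (0.995). Each was lower in both lines, such as ARF3 with -1.55 in Hep-G2 and -0.59 in BE(2)-C. As these genes were picked by r over the same libraries, their falls follow largely from the choice, and no p is given. The libraries share the siRNA groups, so r includes the change between groups and is a description.

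SFN, the paralog with the largest fall, was below 10 FPKM in BE(2)-C, and YWHAG was taken in its place. The genes most like YWHAG were NOLC1 (0.993), KLF6 (0.993) and EML4 (0.992). Their log2 fold changes were -0.69, -0.88 and -1.74 in Hep-G2 and between -0.10 and -0.06 in BE(2)-C. They too were picked by r over these libraries, so no test of their changes is read. For YWHAE, the member with the highest log2 fold change in Hep-G2, r was lower, at 0.932 for PDCD5, 0.926 for PSMA4 and 0.926 for ENY2. Among the members, r with YWHAZ was 0.972 for YWHAB, 0.945 for YWHAG, 0.787 for YWHAH, 0.749 for YWHAQ and -0.600 for YWHAE.

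Genes around the family were described from 7 lists of known clients, of kinases that create the binding motif and of factors that modify 14-3-3 proteins, 77 genes in all. Of 68 tested in Hep-G2, 23 fell and 23 rose at a limma adjusted p under 0.05, where 23.0% of all tested genes were called lower and 21.9% higher, with a median log2 fold change of -0.04 beside 0.01. Of 69 tested in BE(2)-C, 14 fell and 7 rose, where 14.8% and 13.3% of all tested genes were called, with a median of -0.11 beside 0.02. These shares of all genes are also the background for each list below, and no list was tested for enrichment. Without Hep-G2 siI1 replicate 1, 26 fell and 25 rose in Hep-G2, with 26.7% and 23.8% of all tested genes. With equal sums of FPKM, 30 fell and 15 rose there, with 30.0% and 16.5% of all tested genes, so the balance of the directions depends on the scaling, for the lists as for all genes. Leaving out siC replicate 3 or siI1 replicate 3 of Hep-G2 left 15 lower. Of BE(2)-C, leaving out siC replicate 3, siI1 replicate 2 or siI1 replicate 3 left 3 higher, and leaving out siI1 replicate 1 left 4. Counts of single lists are small, so each is followed by its range over the 15 alternatives, which include leaving out each library of the line.

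Among 10 clients of the cell cycle and apoptosis, 3 of 9 tested fell (range 0 to 5) and 4 rose (3 to 4) in Hep-G2, also 3 and 4 without siI1 replicate 1. For BE(2)-C these were 4 (4 to 5) and 0 (0 to 2) of 10. BAX, the pro-apoptotic protein that 14-3-3 can hold in the cytosol, measured 67.3, 71.5 and 65.4 FPKM in Hep-G2 siC and 121, 151 and 151 FPKM in siI1, a log2 fold change of 1.04 (SE 0.10, limma adjusted p = 2.05e-04). The phosphatase CDC25A was lower by a small amount in Hep-G2 (-0.32, SE 0.09, adjusted p = 0.0201), a call lost without siC replicate 2 (-0.24, adjusted p = 0.0512), siI1 replicate 2 (-0.32, adjusted p = 0.0586) or siI1 replicate 3 (-0.30, adjusted p = 0.0621), with a range over its alternatives up to 0.0621. With equal sums of FPKM it was -0.49. BAD, a pro-apoptotic protein that binds 14-3-3 when phosphorylated, was higher in Hep-G2 (0.82, SE 0.12, adjusted p = 0.00193) and lower in BE(2)-C (-0.94, SE 0.07, adjusted p = 2.85e-04). CDC25B, which drives entry into mitosis and is held back by 14-3-3 binding, had the smallest p of this list in BE(2)-C, though BAD fell further. It measured 77.8, 70.5 and 70.4 FPKM there in siC and 41.4, 42.1 and 41.9 FPKM in siI1 (-0.80, SE 0.05, adjusted p = 1.96e-04).

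Among 14 transcriptional clients, 4 of 13 tested fell (range 2 to 5) and 5 rose (2 to 5) in Hep-G2, or 5 and 3 without siI1 replicate 1. For BE(2)-C these were 3 (2 to 4) and 1 (0 to 1) of 10. YAP1, the Hippo pathway coactivator kept in the cytoplasm by 14-3-3, had the largest fall of the named clients, from 54.8, 49.2 and 55.6 FPKM in Hep-G2 siC to 12.2, 9.22 and 8.70 FPKM in siI1 (-2.41, SE 0.13, limma adjusted p = 2.46e-05). MLXIPL, the glucose-responsive factor of the liver, rose in Hep-G2 (1.02, SE 0.07, adjusted p = 4.84e-05), in the libraries where the sum of the hepatocyte markers was higher, and the part of these in it was not tested. The class IIa deacetylase HDAC5 was lower in BE(2)-C (-0.86, SE 0.06, adjusted p = 2.33e-04) and higher in Hep-G2 (0.96, SE 0.08, adjusted p = 1.27e-04). MLXIP was higher in BE(2)-C (0.20, SE 0.05, adjusted p = 0.0313), a call that was lost in 7 of its alternatives.

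Among 14 clients of growth signalling and metabolism, 4 of 13 tested fell (range 3 to 6) and 4 rose (2 to 6) in Hep-G2, or 4 and 6 without siI1 replicate 1. The BE(2)-C counts were 1 (1 to 2) and 0 (0 to 1) of 14. TBC1D4, which controls glucose transporter traffic, was lower in Hep-G2, with 45.4% of its siC mean left (limma adjusted p = 1.91e-04), and the insulin receptor substrate IRS1 was higher (0.77, SE 0.13, adjusted p = 0.00340). The RAF kinase ARAF was the gene called lower in BE(2)-C (-0.37, SE 0.06, adjusted p = 0.00563).

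Of 11 clients tied to the cytoskeleton or RNA, all tested in both lines, 5 fell (range 3 to 6) and 3 rose (2 to 3) in Hep-G2, or 6 and 3 without siI1 replicate 1, and 1 fell (1 to 3) and 1 rose (1 throughout) in BE(2)-C. ZFP36L1, which targets AU-rich mRNAs for decay and is inhibited by 14-3-3 binding, was lower in Hep-G2 (-1.06, SE 0.06, limma adjusted p = 3.50e-05), while the kinesin KIF1C was higher (0.37, SE 0.05, adjusted p = 0.00107, or 0.20 with equal sums of FPKM). In BE(2)-C the decapping factor EDC3 was lower (-0.92, SE 0.06, adjusted p = 2.00e-04) and the cofilin phosphatase SSH1 higher (0.48, SE 0.08, adjusted p = 0.00673).

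Of 7 neuronal clients, 2 were tested in Hep-G2, with 0 lower and 1 higher (range 0 to 1), the same without siI1 replicate 1, and 4 in BE(2)-C, with 1 lower and 1 higher under all 15 alternatives. Tyrosine hydroxylase, TH, the first client described and the enzyme that starts catecholamine synthesis, measured 34.5, 27.0 and 28.9 FPKM in BE(2)-C siC and 48.2, 46.6 and 43.2 FPKM in siI1 (0.61, SE 0.09, limma adjusted p = 0.00369). The potassium channel KCNK3 was lower there (-0.68, SE 0.06, adjusted p = 6.62e-04). TPH1, of serotonin synthesis, had 17 to 41 reads per library in Hep-G2 and was higher (0.91, SE 0.23, adjusted p = 0.0168), a call lost without siC replicate 1 (0.87, adjusted p = 0.0518) or siI1 replicate 2 (0.92, adjusted p = 0.0551), the latter the highest over its alternatives, and a pseudocount of 1 gave 0.29.

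Of 16 kinases that phosphorylate the motif, 15 were tested in each line. In Hep-G2, 5 fell (range 5 to 6) and 5 rose (4 to 6), or 6 and 6 without siI1 replicate 1, and in BE(2)-C 2 fell (0 to 3) and 4 rose (1 to 4). The checkpoint kinase CHEK1 was lower (-0.67, SE 0.08, limma adjusted p = 5.36e-04) and the protein kinase A subunit PRKACA higher (0.99, SE 0.06, adjusted p = 3.42e-05) in Hep-G2. In BE(2)-C, SGK1 was higher (0.81, SE 0.07, adjusted p = 5.70e-04), and AKT1 was lower by a small amount (-0.24, SE 0.06, adjusted p = 0.0215), a call lost without siI1 replicate 2 (-0.23, adjusted p = 0.0750) or siI1 replicate 3 (-0.24, adjusted p = 0.0647) or with no mean-variance trend (adjusted p = 0.0718), with a highest adjusted p over its alternatives of 0.0750. AKT1 was higher in Hep-G2 (0.25, SE 0.06, adjusted p = 0.0119), a call lost with equal sums of FPKM (0.09, adjusted p = 0.165, the highest over its alternatives).

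Of 5 modifiers of 14-3-3 proteins, 2 fell (range 1 to 2) and 1 rose (1 to 2) in Hep-G2, or 2 and 2 without siI1 replicate 1, and 2 fell (2 to 3) and 0 rose (0 throughout) in BE(2)-C. The casein kinase CSNK1A1, which can phosphorylate certain 14-3-3 proteins, was lower in Hep-G2 (-1.30, SE 0.14, limma adjusted p = 3.57e-04). PRKCZ, an atypical protein kinase C, was higher in Hep-G2, from 10.4, 11.2 and 11.2 FPKM to 19.1, 21.5 and 22.3 FPKM (0.93, SE 0.07, adjusted p = 1.12e-04), and lower in BE(2)-C, from 6.11, 6.20 and 5.69 FPKM to 4.52, 4.22 and 4.08 FPKM (-0.48, SE 0.07, adjusted p = 0.00332).

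Of 62 list genes tested in both lines, 4 were called in opposite directions (AKT1, BAD, HDAC5 and PRKCZ), where 5.82% of all genes tested in both were. Each of these 4 fell in BE(2)-C while it rose in Hep-G2. The difference between the lines was 1.82 for HDAC5 (SE 0.10), 1.76 for BAD (SE 0.15), 1.41 for PRKCZ (SE 0.10) and 0.49 for AKT1 (SE 0.08), or 0.31 for AKT1 with equal sums of FPKM. As the genes were picked by their opposite calls in these same libraries, the differences are descriptions and no p is given. Without Hep-G2 siI1 replicate 1 there were 7 such genes, with ARAF, SGK1 and SPHK1 added, beside 7.79% of all genes.

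**Figure D5:**
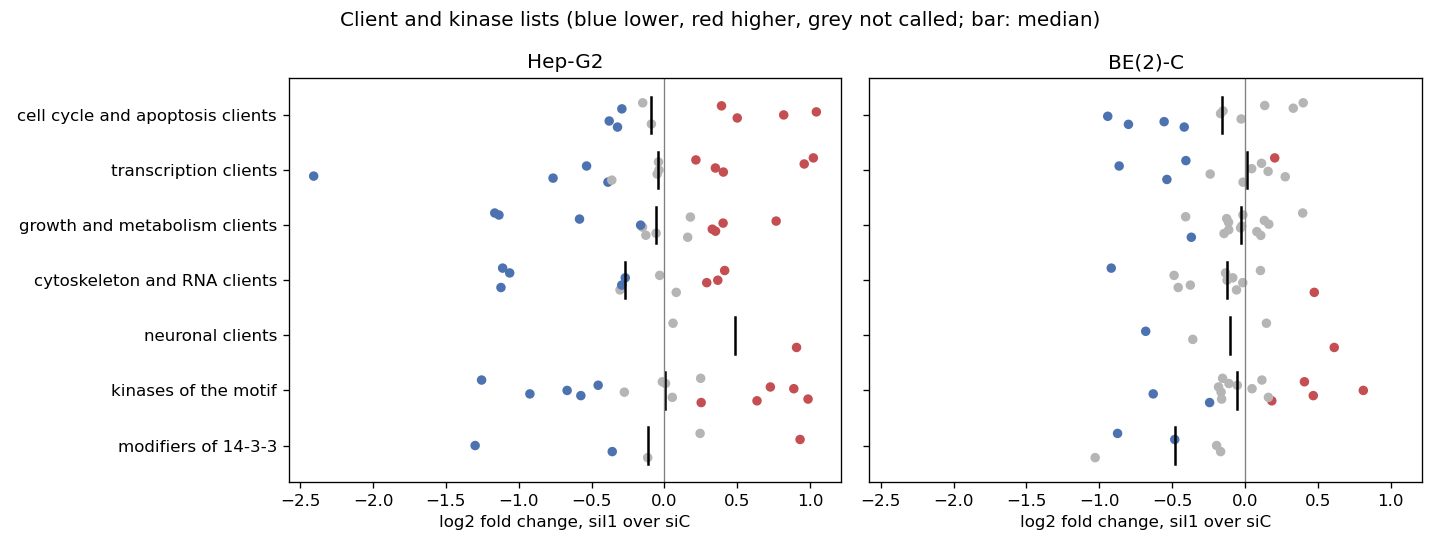
Log2 fold change of siI1 over siC (x axis) of each tested gene of the 7 lists (y axis) in Hep-G2 (left) and BE(2)-C (right), blue for genes called lower, red for higher and grey for not called, with black bars at the list medians. In Hep-G2, 23 of 68 genes are blue and 23 red, with YAP1 farthest left at -2.41.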

How the data were processed

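The authors clipped reads with cutadapt 1.14, aligned them to hg38 with HISAT2 2.1.0, used SAMtools 1.5, counted them per gene with featureCounts 1.5.3 and scaled libraries with edgeR 3.30.3. The deposited FPKM columns carry no named unit, and FPKM was taken from the values: multiplied by gene length, 100% of nonzero values fell on whole multiples of 1 step per library (tolerance 0.01), which also gave reads per gene. The tables further hold the authors' log2 fold changes, p-values and FDR, which were not used here.

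Genes with at least 0.1 FPKM in at least 3 of a line's libraries were tested on log2(FPKM + 0.1) with limma 3.58.1 in R 4.3.3 (mean-variance trend), with Benjamini-Hochberg adjustment over all tested genes at 0.05. Paralogs were tested after subtracting YWHAZ per library, and the lines were compared in 1 fit of 12 libraries with 4 group means. Values at or under 3 reads were treated as the detection floor. Alternatives covered pseudocount, filter, trend, scaling, threshold, replicate block and leaving out each library. SciPy 1.17.1, Biopython 1.88 and Matplotlib 3.10.9 were also used.

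Named genes were IGF2BP1, the members, their pseudogenes, for each list and line the gene with the smallest p in each direction, the list genes called in opposite directions in the lines, and the genes with the highest r to YWHAZ (5) and to the paralogs with the lowest and highest fold change (3 each). Members and lists were chosen with earlier results of these data known. Client and marker lists came from general knowledge. A marker in the design is not reported here.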

Additional observations from a re-analysis of the deposited data

Results flagged for a closer look

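The change after IGF2BP1 knockdown differed between Hep-G2 and BE(2)-C, by a test of the difference itself in 1 limma fit, for 4 of the 6 members above the detection floor in both lines, where 40.2% of all genes tested in both differed. The Hep-G2 change minus the BE(2)-C change was -0.88 for YWHAZ, -0.63 for YWHAG, -0.44 for YWHAB and -0.36 for YWHAH on the log2 scale. Of 62 list genes tested in both lines, 4 were picked because they were called in opposite directions, beside 5.82% of all genes, so a test of their difference on the same libraries was bound to pass and is not read here. They rose in Hep-G2 and fell in BE(2)-C, with differences of 1.82 for HDAC5, 1.76 for BAD, 1.41 for PRKCZ and 0.49 for AKT1. The AKT1 call was lost in Hep-G2 with equal sums of FPKM (0.09, limma adjusted p = 0.165), and in BE(2)-C under 3 alternatives. BE(2)-C cells received 25 nM of siRNA, and Hep-G2 cells 15 nM. The change of IGF2BP1 itself differed by 0.02. The cause of these differences was not tested.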

How the results depend on the processing

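The number of members called lower was 5 or 6 in Hep-G2 and 1 in BE(2)-C under all 15 alternatives in each line, and paralogs less lowered than YWHAZ numbered 5 or 6 and 5. Members called higher in Hep-G2 ranged from 0 to 1 when libraries were left out, the latter without siI1 replicate 1. With equal sums of FPKM, YWHAE turned to -0.041 in Hep-G2 and to -0.096 for the difference between the lines, and the genes of the 7 lists called higher in Hep-G2 went from 23 to 15. At an adjusted p under 0.01, 14 genes of the lists fell in Hep-G2 and 3 rose in BE(2)-C, the latter also 3 without the mean-variance trend. Leaving out each library gave 15 to 26 that fell in Hep-G2 and 3 to 8 that rose in BE(2)-C. The cause was not tested. Of all tests of single genes under alternatives, 941 kept direction and side of the threshold, 16 lost the call, 6 gained it and 2 reversed.

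The numbers of replicates did not pair the libraries, with correlations of same-numbered deviations between -0.01 and 0.06. With the replicate block, 5 members were lower in Hep-G2, 1 in BE(2)-C, and 4 differed between the lines, while SFN passed the threshold against YWHAZ (0.38, limma adjusted p = 0.0224, range over alternatives 0.00150 to 0.167).

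SFN in BE(2)-C, with up to 3 reads per library, was below what this depth can measure. Each group had 3 libraries, so an exact permutation test could not go below 0.1, and calls rest on limma's shared error across genes.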
